A study of Mus musculus with 6 samples.

Results

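The 35 genes described here carry glucose into the cell, break it down to pyruvate, and then turn the pyruvate into lactate for export or govern its conversion to acetyl-CoA in the mitochondria. They were chosen by symbol as the isozymes of each of these steps, and they are 35 of the 53458 genes measured, of which 22170 were abundant enough to test. Of the 35, 34 were tested and 32 had a mean of at least 1 CPM (counts scaled to a common library size after TMM normalization). *Pklr*, the pyruvate kinase of liver and red cells, was the one not tested, at 0 to 3 reads per library.

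RNA was sequenced from mouse AML blasts of 2 genotypes, with 3 samples labelled Cebpa-/p30 Tet2+/+ (s19, s23 and s24) and 3 labelled Cebpa-/p30 Tet2-/- (s5, s7 and s8). All 6 lack the full-length form of the transcription factor C/EBPα, since one *Cebpa* allele was deleted and the other makes only the shorter p30 form, so the groups differ by label in *Tet2*, which encodes a DNA demethylase, alone. Marrow of C57BL/6J donors carried floxed alleles and Mx1-Cre, an interferon-responsive Cre that is not limited to leukemic cells. It was transplanted into lethally irradiated young adult female C57BL/6J.SJL recipients, deletion was induced with Poly(I)-Poly(C), and live donor cells without T, B and erythroid surface markers were sorted from thawed marrow of moribund mice. Several recipients could share a donor, which the labels do not resolve, and the age of each animal when its marrow was taken is not given in the sources used here. The comparison asks how loss of TET2 alters the blasts that p30 produces.

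The libraries held between 13036643 and 32855343 estimated reads, with s5 the deepest. *Tet2* stood at 73.6 to 98.4 CPM in the Tet2+/+ samples and at 79.4 to 111 CPM in the Tet2-/- samples, and a count over the whole gene also covers what a deletion leaves, so it does not check the labels. All 16 listed genes of leukocytes and myeloid blasts were detected, and their summed level of 12748, 10566 and 11244 CPM against 13820.1, 14389 and 11525 CPM overlapped between genotypes. The 12 listed genes of mature neutrophils varied widely between samples, at 59425, 11966 and 43313 CPM against 66891, 123696 and 26287 CPM, with s7 highest and s23 lowest. All 12 had a positive log2 fold change, with a median of 0.92, but the groups overlapped in each and 0 passed at an unadjusted p under 0.05 (edgeR). Here and throughout, the first 3 values are those of s19, s23 and s24 (Tet2+/+), and the last 3 are those of s5, s7 and s8 (Tet2-/-).

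Glycolysis splits one glucose into a pair of pyruvates, with ATP spent in the upper steps and regained in the lower ones. Hexokinase, phosphofructokinase and pyruvate kinase are its regulated steps, and most steps have several isozymes that differ by tissue. Myeloid cells, above all neutrophils, rely on glycolysis more than on respiration, and dividing leukemic cells run it at a high rate even in oxygen, exporting lactate. The hypoxia-inducible factors activate many of these genes through a short DNA element, and Myc binds a related one.

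A larger share of the members than of all genes lay above in the Tet2-/- samples, but none passed edgeR's test adjusted over all genes, and DESeq2 called 2. With edgeR's quasi-likelihood test and Benjamini-Hochberg adjustment, 0 of 34 members were higher and 0 lower at an adjusted p under 0.05, where 0.0% and 0.0451% of all genes tested were. At an unadjusted p under 0.05, 8 of 34 members were higher (23.5%) and 0 lower, where 3.0% and 5.12% of all genes were. The 8 were *Slc2a1*, *Hk2*, *Aldoa*, *Tpi1*, *Gapdh*, *Eno1*, *Pkm* and *Slc16a3*. This count fell to 2 without s23, 1 without s24 and 4 without s5, and was 3 with library size as the only scaling. DESeq2 called 2 members higher, *Gapdh* (adjusted p = 0.00191) and *Pkm* (adjusted p = 0.0169), and 0 lower, where it called 0.331% of all genes higher and 1.83% lower. On length-scaled counts, DESeq2 called 1 member higher, *Gapdh* (adjusted p = 0.0203), and not *Pkm* (adjusted p = 0.0773), and 0 lower, where it called 0.333% of all genes higher and 1.68% lower.

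The median log2 fold change of the 34 members was 0.28, against 0.0016 over all 22170 genes, and 22 members had a positive one, as did 11112 of all genes. Of the 13839 genes that averaged 1 CPM or more, 7710 had a positive value, and their median was 0.052. In 10 of the 32 members with at least 1 CPM (31.2%), every Tet2-/- sample lay above every Tet2+/+ sample, where 8.24% of 13839 such genes did. They were *Hk1*, *Hk2*, *Aldoa*, *Tpi1*, *Gapdh*, *Pgk1*, *Pgam1*, *Eno1*, *Pkm* and *Slc16a3*, by 1.28-fold to 1.86-fold between means. In 1 member, *Bpgm*, every Tet2-/- sample lay below (3.12%), where 7.71% of genes did. With library size as the only scaling, which moved the median of all genes by -0.17, 6 members stayed apart upwards (*Hk1*, *Hk2*, *Aldoa*, *Gapdh*, *Pkm* and *Slc16a3*), where 2.93% of all genes did.

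Summed over the 35 genes, the members held 10457, 8177 and 9101 against 14391, 14517 and 12113 CPM, so the Tet2-/- samples were 3 of 3 above the others. In TPM, which corrects for transcript length and so allows genes to be compared, the sums were 6291, 5532 and 5906 against 8263, 8305 and 7741. The sums rest mostly on a few abundant steps.

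**Figure D1:**
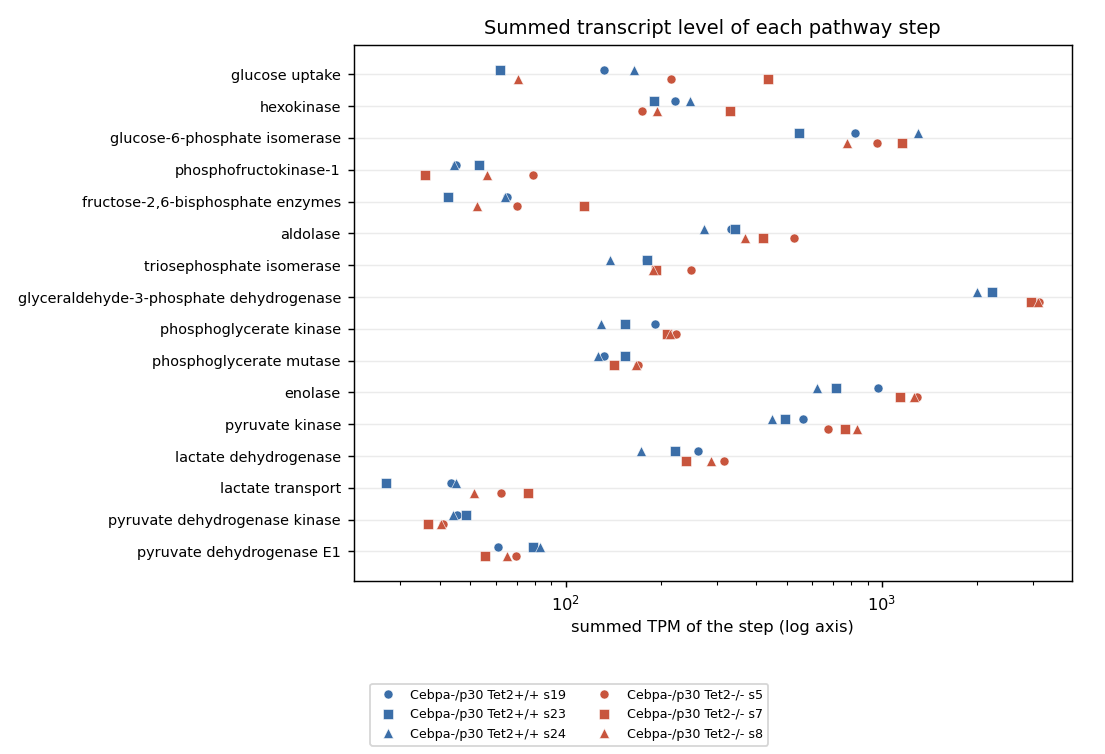
Summed level of the member genes of each of 16 pathway steps, in TPM on a log axis, with 1 point per sample, from glucose uptake at the top to pyruvate dehydrogenase at the bottom. Steps from aldolase to pyruvate kinase, except phosphoglycerate mutase, lie apart between genotypes, while the steps above aldolase overlap.

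In TPM, 8 of the 32 members with at least 1 CPM were above in every Tet2-/- sample and 0 were below, where 4.54% and 9.21% of 13839 single genes were. Of the 16 steps in summed TPM, 7 were above, and no like sums were made over other genes. Of these 7 steps, 6 belong to the lower part of the pathway, namely aldolase, triosephosphate isomerase, glyceraldehyde-3-phosphate dehydrogenase, phosphoglycerate kinase, enolase and pyruvate kinase. Lactate transport was the other. Phosphoglycerate mutase was apart in summed CPM but overlapped in TPM. None of the 5 steps upstream of aldolase was. The largest step was glyceraldehyde-3-phosphate dehydrogenase, at 2219, 2222 and 2002 TPM against 3138, 2953 and 3117 TPM. Enolase followed at 972, 716 and 622 TPM against 1287, 1142 and 1258 TPM, and glucose-6-phosphate isomerase at 823, 548 and 1299 TPM against 967, 1157 and 777 TPM. The smallest was pyruvate dehydrogenase kinase at 45.2, 48.4 and 44.2 TPM against 40.9, 36.6 and 40.4 TPM, the one step below in every Tet2-/- sample in TPM, though its summed 95.2, 95.7 and 86.3 CPM against 90.9, 74.01 and 81.5 CPM overlapped. The difference between upper and lower steps was not tested. The sums take in transcripts not annotated as coding, and none were made over coding transcripts alone. The retained-intron *Tpi1-202* averaged 43.8% of *Tpi1* TPM, and the coding *Tpi1-205* held 13.9% in s7, below its share in every Tet2+/+ sample. Of *Pdk1* TPM, the coding *Pdk1-201* averaged 6.33%. The coding *Gpi1-201*, *Gpi1-205* and *Gpi1-210* averaged 12.9, 12.2 and 10.9% of *Gpi1* TPM.

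**Figure D2:**
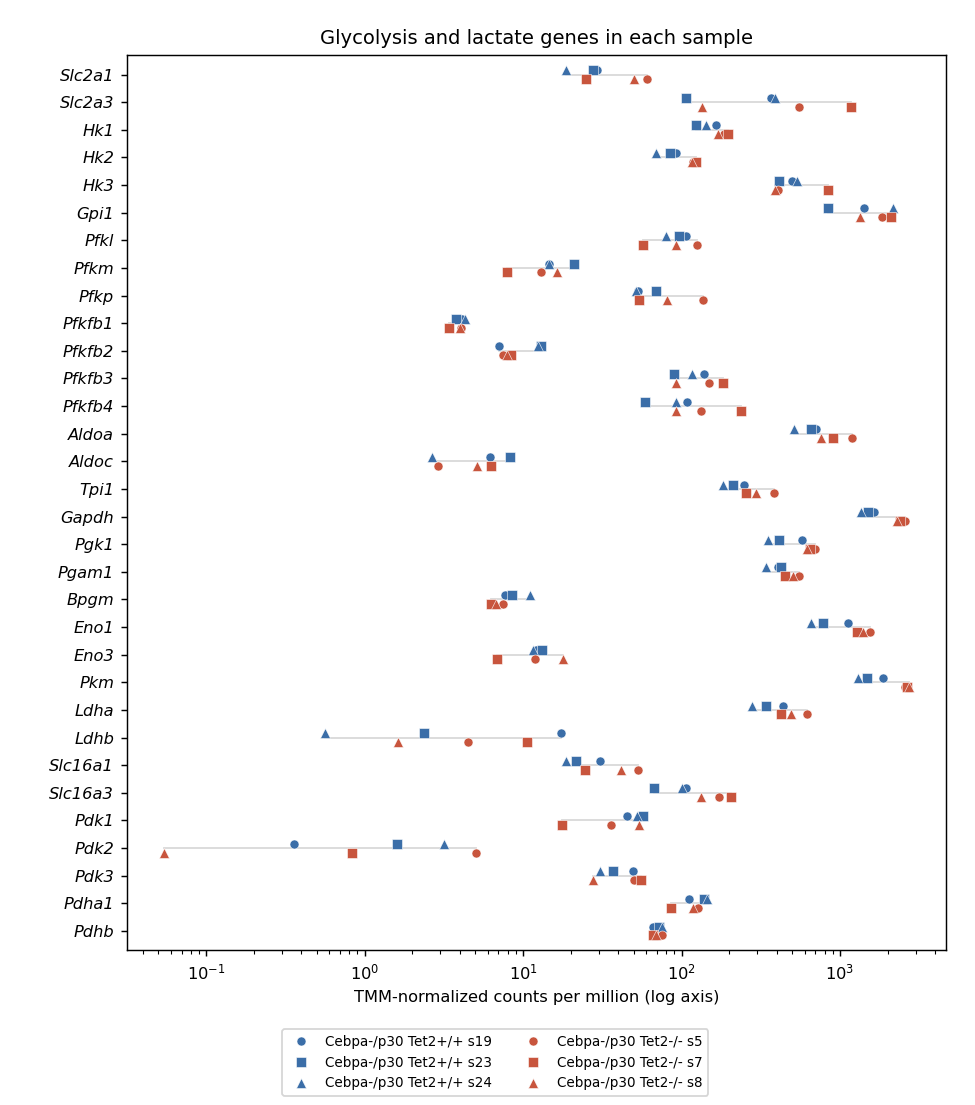
Level of the 32 members with a mean of at least 1 CPM, in TMM-normalized CPM on a log axis, with 1 point per sample and members in pathway order. *Gapdh* and *Pkm* show the genotypes apart above 1000 CPM, while *Slc2a3*, *Ldhb* and *Pdk2* spread widely within each genotype.

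Glucose enters through facilitated transporters. *Slc2a3* (ENSMUSG00000003153, chromosome 6 from 122727809 to 122801640), the high-affinity transporter GLUT3, was the main one, at 364, 106 and 389.95 CPM against 553, 1182 and 134 CPM. It was highest in s7 and lowest in s23, with s8 next to s23, so the genotypes overlapped. Its log2 fold change of 1.12 (SE 0.78, adjusted p = 0.7601) ranged between 0.27 and 1.59 with 1 sample left out, the lower end without s7. *Slc2a3* followed the mature neutrophil list, which was also highest in s7, then s5, and lowest in s23 and s8, and the part of those cells in it was not tested. In a bulk sample, fewer cells of a type and less RNA per cell cannot be told apart.

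*Slc2a1* (ENSMUSG00000028645, chromosome 4 from 119108711 to 119137983), the widespread transporter GLUT1, averaged 13.5 TPM, where *Slc2a3* averaged 167 TPM. It stood at 29.1, 27.8 and 18.8 CPM against 60.7, 25.1 and 49.9 CPM. It was high in s5 and s8, but s7 lay within the Tet2+/+ range, and its log2 fold change was 0.84 (SE 0.35, adjusted p = 0.605). Of the summed TPM of both transporters, *Slc2a1* made up 7.15, 22.6 and 4.99% against 9.02, 1.98 and 30.5%. This share was largest in s8 and s23, the samples with the lowest neutrophil list and the highest list of 12 monocyte and macrophage genes, which summed to 584, 1252 and 530.4 CPM against 839, 307 and 1804 CPM.

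Hexokinases trap glucose as glucose 6-phosphate. *Hk3* (ENSMUSG00000025877, chromosome 13 from 55005985 to 55021385), the isozyme typical of myeloid cells, made up 79.2, 77.1 and 83.8% against 71.9, 84.05 and 72.8% of the hexokinase TPM. It stood at 496, 413 and 534 CPM against 408, 837 and 386 CPM, highest in s7, with s5 and s8 below all 3 Tet2+/+ samples, and its log2 fold change of 0.18 (SE 0.33, adjusted p = 0.922) turned to -0.03 with library size as the only scaling and to -0.28 without s7. *Hk2* (ENSMUSG00000000628, chromosome 6 from 82725025 to 82774454), the inducible one, stood at 92.8, 84.1 and 68.6 CPM against 118, 123 and 116 CPM, with the 3 Tet2-/- samples close together and above the others, and a log2 fold change of 0.54 (SE 0.17, adjusted p = 0.5101).

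*Hk1*, the constitutive isozyme, stood at 166, 124 and 142 CPM against 186, 198 and 170.5 CPM and was also apart, with a log2 fold change of 0.36 (SE 0.17, adjusted p = 0.654), but in TPM it overlapped. The family total of 222, 189.97 and 248 TPM against 175, 331 and 195 TPM overlapped too, with *Hk3* its largest part. *Gpi1* (ENSMUSG00000036427, chromosome 7 from 34201330 to 34230336), which converts glucose 6-phosphate to fructose 6-phosphate, was one of the most abundant members in TPM and stood at 1408, 845 and 2147 CPM against 1833, 2107 and 1343 CPM. Its highest sample was s24 and its lowest s23, both Tet2+/+, and its log2 fold change of 0.26 (SE 0.38, adjusted p = 0.891) became -0.03 without s23.

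Phosphofructokinase-1 makes the committed step, as tetramers of liver (*Pfkl*), muscle (*Pfkm*) and platelet (*Pfkp*) subunits. Its total of 45.1, 53.3 and 44.3 TPM against 78.9, 36.03 and 56.4 TPM overlapped between genotypes, but its makeup did not. *Pfkl* (ENSMUSG00000020277, chromosome 10 from 77986947 to 78010083) made up 60.9, 51.8 and 55.6% against 39.6, 38.1 and 39.9% of the family TPM, or 56.1% ± 4.53 against 39.2% ± 0.942 (SD, n = 3 each). *Pfkp* (ENSMUSG00000021196, chromosome 13 from 6579768 to 6648777) made up 33.4, 40.1 and 37.5% against 56.5, 53.5 and 52.8%, or 37.02% ± 3.41 against 54.3% ± 2.01 (SD, n = 3 each). In TPM, *Pfkl* was therefore the leading isozyme in 3 of 3 Tet2+/+ samples and *Pfkp* in 3 of 3 Tet2-/- samples.

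The ratio of *Pfkp* to *Pfkl* in TPM was 0.549, 0.774 and 0.674 against 1.43, 1.402 and 1.32. The exact two-sided permutation test of either share gave p = 0.10, the smallest that 3 against 3 samples allow. After Benjamini-Hochberg adjustment over the 22 isozyme shares tested it was 0.44, and shares of one family depend on each other. Of the 22 shares, 5 were apart between genotypes, namely *Pfkl*, *Pfkp*, *Pfkfb1*, *Pfkfb4* and *Eno1b*. No such shares were read over all genes. In shares of counts, which do not correct for length, *Pfkl* made up 61.2, 51.9 and 54.6% against 45.7, 48.01 and 48.9% and *Pfkp* 30.5, 36.8 and 35.5% against 49.5, 45.4 and 42.5%. The groups were again apart, but the difference for *Pfkl* was -8.37 percentage points in place of -16.9, and *Pfkl* led in s7 and s8, so that *Pfkp* led in 1 of 3 Tet2-/- samples only. Counting only protein-coding transcripts, *Pfkp* made up 35.2, 41.1 and 27.3% against 54.04, 44.4 and 46.5%, also apart.

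As levels, neither gene separated the genotypes. *Pfkp* stood at 53.2, 68.7 and 51.9 CPM against 137, 54.2 and 80.6 CPM, with s5 far above the rest and s7 within the Tet2+/+ range, and a log2 fold change of 0.64 (SE 0.33, adjusted p = 0.6702). That value ran from 0.21 to 0.91 with 1 sample left out. *Pfkl* stood at 107, 96.9 and 79.8 CPM against 126, 57.4 and 92.8 CPM, with s7 lowest and s5 highest, and a log2 fold change of -0.04 (SE 0.29, adjusted p = 0.986). The Tet2-/- samples thus held very different levels of both genes, while the ratio of *Pfkp* to *Pfkl* in them lay between 1.32 and 1.43 in TPM, between 1.04 and 1.36 over protein-coding transcripts and between 0.869 and 1.08 in counts. *Pfkm*, at 14.6, 20.9 and 14.5 CPM against 13.1, 7.91 and 16.4 CPM, made up 5.75, 8.02 and 6.86% against 3.88, 8.39 and 7.299% of the family.

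**Figure D3:**
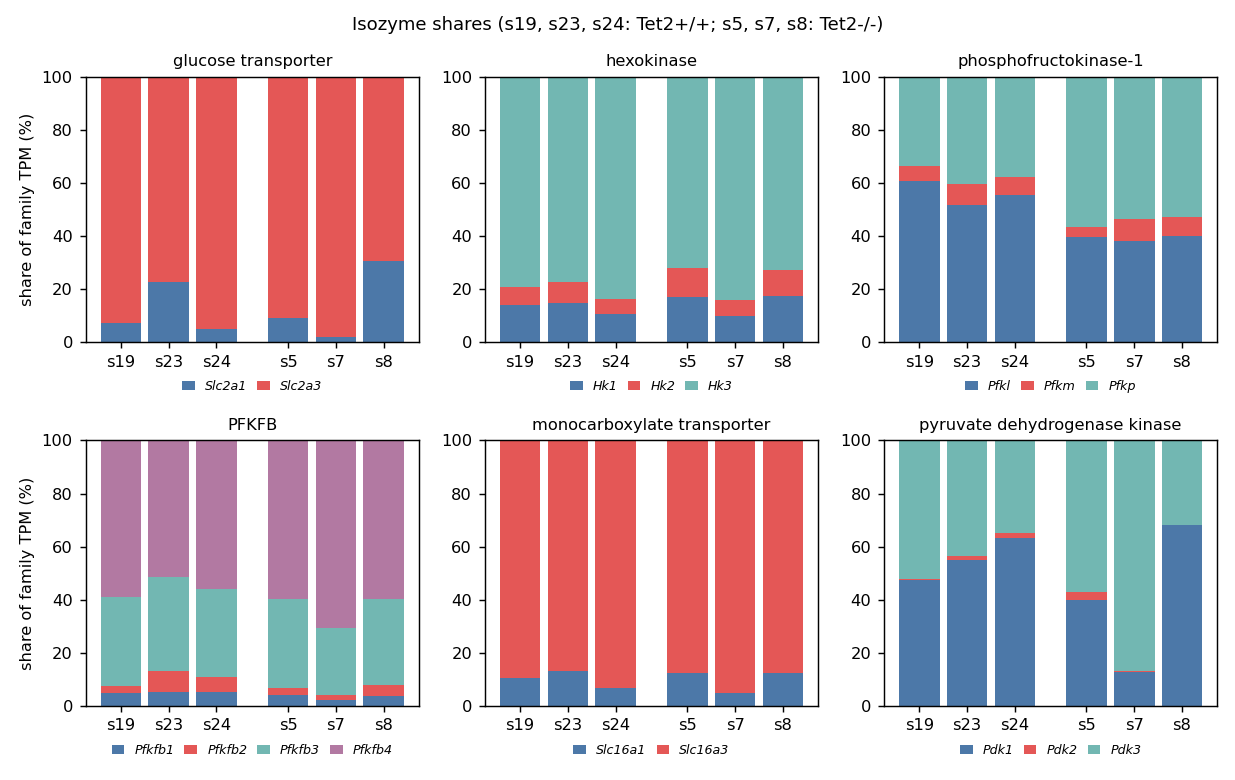
Share of each isozyme in the summed TPM of its family, in percent, as stacked bars with 1 bar per sample for 6 families. *Pfkp* holds the larger part of phosphofructokinase-1 in s5, s7 and s8, while glucose transporter and pyruvate dehydrogenase kinase shares vary within each genotype.

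The bifunctional PFKFB enzymes make and remove fructose 2,6-bisphosphate, the strongest activator of phosphofructokinase-1. *Pfkfb4* (ENSMUSG00000025648, chromosome 9 from 108991778 to 109032228) made up 58.99, 51.5 and 55.8% against 59.6, 70.8 and 59.9% of the family TPM, the largest share there, with no overlap between genotypes. Over protein-coding transcripts only, it made up 15.6, 9.27 and 21.5% against 36.8, 34.8 and 19.4%, with overlap, and *Pfkfb3* led in all 6 samples with 73.9, 70.8 and 66.2% against 55, 58.8 and 65.2%. In shares of counts *Pfkfb3* led in 5 of 6 samples, all but s7. The level of *Pfkfb4* was 108, 59.1 and 92.5 CPM against 133, 237 and 92.03 CPM, highest in s7 and lowest in s23, with a log2 fold change of 0.83 (SE 0.38, adjusted p = 0.6398). With 1 sample left out this value ran from 0.39 to 1.09. *Pfkfb3*, whose kinase activity is strongest, stood at 139, 89.7 and 117 CPM against 148, 184 and 92.5 CPM with a log2 fold change of 0.30 (SE 0.29, adjusted p = 0.835), and it too was highest in s7 and lowest in s23. *Pfkfb1* at 4.13, 3.801 and 4.295 CPM against 4.05, 3.41 and 4.02 CPM and *Pfkfb2* at 7.06, 13.1 and 12.5 CPM against 7.47, 8.36 and 7.87 CPM were minor forms, with log2 fold changes of -0.09 (SE 0.30) and -0.46 (SE 0.30). *Pfkfb2* shares sequence with 19 other annotated genes, which took 1.67% to 5.84% of the combined reads.

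Aldolase cleaves the hexose into a pair of triose phosphates. *Aldoa* (ENSMUSG00000030695, chromosome 7 from 126795234 to 126800751) made up 98.5, 98.6 and 99.5% against 99.5, 98.9 and 99% of aldolase TPM and stood at 709, 655 and 511 CPM against 1189.9, 909 and 759 CPM, apart between genotypes, with a log2 fold change of 0.61 (SE 0.25, adjusted p = 0.604). A second annotated gene of the same symbol held 15 to 48 reads and was left out. *Aldoc*, the brain form, stood at 6.22, 8.25 and 2.68 CPM against 2.91, 6.301 and 5.15 CPM. *Tpi1* (ENSMUSG00000023456, chromosome 6 from 124810586 to 124814296), which interconverts the trioses, stood at 248, 210.3 and 182 CPM against 382, 255 and 297 CPM, with s7 only just above s19, and a log2 fold change of 0.55 (SE 0.22, adjusted p = 0.604).

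*Gapdh* (ENSMUSG00000057666, chromosome 6 from 125161715 to 125166467), which oxidizes glyceraldehyde 3-phosphate and yields NADH, was the most abundant member per length, with a mean of 2608 TPM. It stood at 1634, 1498 and 1358 CPM against 2584, 2395 and 2280.2 CPM, or 1497 ± 138 CPM against 2419.5 ± 153 CPM (SD, n = 3 each). The lowest Tet2-/- sample was well above the highest Tet2+/+ sample, and the log2 fold change was 0.69 (SE 0.22, adjusted p = 0.527), between 0.63 and 0.76 with any 1 sample left out. *Gapdh* has 91 near-identical copies in the annotation, mostly pseudogenes, which took 9.09% to 26.7% of the combined reads. With their reads added the log2 fold change was 0.53. *Gm12671*, a pseudogene of identical sequence, held 9250, 4878 and 3684 reads against 5901, 4053 and 5641. *Gapdh* held 27310, 27974 and 19293 reads against 81670, 37245 and 42021, so the copy's part was larger in every Tet2+/+ sample. What the assignment of reads adds to the difference was not tested, and DESeq2 was not run with copies added.

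*Pgk1* (ENSMUSG00000062070, chromosome X from 106187100 to 106203699), the first step that yields ATP, stood at 577, 410.1 and 352 CPM against 692, 644 and 621 CPM, with the Tet2-/- samples within a narrow range and s19 closest to them, and a log2 fold change of 0.55 (SE 0.23, adjusted p = 0.621). *Pgam1*, which moves the phosphate group of phosphoglycerate, stood at 408, 422 and 342 CPM against 549, 451 and 502 CPM, with a log2 fold change of 0.36 (SE 0.19, adjusted p = 0.668), and overlapped in TPM. Copies took 2.41% to 9.23% of combined *Pgk1* reads and 9.29% to 14% of combined *Pgam1* reads. *Bpgm*, which makes 2,3-bisphosphoglycerate and is abundant in red cells, was low at 7.72, 8.57 and 11.1 CPM against 7.498, 6.301 and 6.78 CPM and was the one member below in every Tet2-/- sample. Its margin between s5 and s19 was small, its log2 fold change was -0.41 (SE 0.26, adjusted p = 0.739), and in TPM it overlapped. The summed list of 13 annotated erythroid genes, highest in s19, was 318, 101 and 109.6 CPM against 162, 126 and 123 CPM.

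*Eno1* (ENSMUSG00000063524, chromosome 4 from 150236721 to 150248879), the widespread enolase, made up 98.5, 98.2 and 97.4% against 98.97, 99.3 and 98.3% of enolase TPM. It stood at 1122, 785 and 652 CPM against 1536, 1285 and 1392 CPM, with a log2 fold change of 0.72 (SE 0.26, adjusted p = 0.591), and s19 was the closest Tet2+/+ sample. *Eno3*, the muscle form, stood at 12.1, 13.2 and 11.5 CPM against 11.8, 6.82 and 17.96 CPM, and its log2 fold change of -0.01 (SE 0.36) changed sign under several settings. *Eno2*, the neuronal form, and *Eno1b*, nearly identical to *Eno1*, had means under 1 CPM, and reads of *Eno1b* could belong to *Eno1*.

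*Pkm* (ENSMUSG00000032294, chromosome 9 from 59656368 to 59679375) makes pyruvate and ATP and held nearly all pyruvate kinase TPM. It stood at 1877, 1472 and 1299.6 CPM against 2566, 2642 and 2706 CPM, or 1549 ± 296 CPM against 2638 ± 70.5 CPM (SD, n = 3 each), with the Tet2-/- samples close together and apart from the others. Its log2 fold change was 0.77 (SE 0.24, adjusted p = 0.527), between 0.65 and 0.93 with any 1 sample left out. *Pkm* has a pair of mutually exclusive exons of 167 bases, of which the upstream one makes the M1 form of muscle and the downstream one the M2 form of dividing cells. They are shown because the form of *Pkm* rests on which is used, as genomic sequence of GRCm38 from GENCODE M21 transcripts, with capitals at the 64 bases that differ and lower case at the 103 that are identical.
M1 (chr9:59675029-59675195, + strand): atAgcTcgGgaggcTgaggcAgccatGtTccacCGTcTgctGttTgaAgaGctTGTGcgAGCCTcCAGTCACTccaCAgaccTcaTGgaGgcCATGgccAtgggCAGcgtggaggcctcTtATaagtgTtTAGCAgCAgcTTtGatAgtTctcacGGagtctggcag
M2 (chr9:59675568-59675734, + strand): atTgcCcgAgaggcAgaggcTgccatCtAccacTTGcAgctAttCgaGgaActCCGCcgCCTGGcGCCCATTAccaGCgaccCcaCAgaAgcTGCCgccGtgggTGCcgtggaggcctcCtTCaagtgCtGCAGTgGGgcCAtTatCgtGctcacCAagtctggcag

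With 61.7% identity, reads over these exons can be assigned to a form. Transcripts with the M2 exon held 288, 266 and 223 against 388, 407 and 435 TPM and those with the M1 exon 70.1, 47.8 and 48.5 against 81.9, 77.4 and 99.2 TPM. Both were above in every Tet2-/- sample. The M2 share of both forms together was 80.4, 84.8 and 82.1 against 82.6, 84.01 and 81.4%, so M2 prevailed in all 6 samples and the share overlapped, at 82.5% ± 2.21 against 82.7% ± 1.3 (SD, n = 3 each; exact two-sided permutation p = 0.9). Transcripts with neither exon, whose form is unknown, took 36.5, 36.1 and 39.7 against 30.5, 36.5 and 35.7% of *Pkm* TPM.

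Over the transcripts of 23 members with at least 10 TPM, 66 had a mean share of at least 10% of their gene. Of these, 9 (13.6%) had shares without overlap between genotypes, where 13.2% of 15434 such transcripts of all genes did, a share near the background. Of *Gapdh*, the coding transcript *Gapdh-212* made up 19.4, 23.6 and 24.2% against 29.1, 26.96 and 26.9% of its TPM and the retained-intron transcript *Gapdh-206* 26.1, 24.8 and 23.8% against 21.5, 21.96 and 22.1%. With 194 transcripts tested by exact two-sided permutation, the lowest p was 0.10 and the lowest adjusted p 0.843.

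Lactate dehydrogenase reduces pyruvate to lactate. *Ldha* (ENSMUSG00000063229, chromosome 7 from 46841475 to 46855627) made up 94.9, 99.5 and 99.8% against 99.03, 96.3 and 99.7% of its TPM and stood at 439.9, 343 and 279.9 CPM against 621, 427 and 493 CPM. The genotypes overlapped only in that s7 lay just below s19, and the log2 fold change was 0.54 (SE 0.24, adjusted p = 0.639). *Ldhb*, whose tetramers favour the reverse reaction, was low and scattered at 17.3, 2.36 and 0.563 CPM against 4.52, 10.6 and 1.63 CPM, with no order by genotype.

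Lactate leaves the cell with a proton through monocarboxylate transporters. *Slc16a3* (ENSMUSG00000025161, chromosome 11 from 120948480 to 120960868), the low-affinity exporter MCT4 of glycolytic cells, made up 89.7, 86.95 and 93.3% against 87.7, 95.3 and 87.6% of the pair's TPM. It stood at 107, 66.9 and 99.99 CPM against 171, 205 and 133 CPM, or 91.3 ± 21.4 CPM against 169.6 ± 36.3 CPM (SD, n = 3 each), apart between genotypes. Its log2 fold change was 0.89 (SE 0.25, adjusted p = 0.462), between 0.70 and 1.04 with any 1 sample left out. It had the lowest unadjusted p of the members in edgeR, 0.00851, and the largest log2 fold change among the 10 members that separated the genotypes. *Slc16a1* (ENSMUSG00000032902, chromosome 3 from 104638668 to 104658462), the bidirectional MCT1, stood at 30.6, 21.5 and 18.7 CPM against 53.1, 24.7 and 41.6 CPM, with s5 and s8 above the others and s7 within the Tet2+/+ range, as for *Slc2a1*, and a log2 fold change of 0.75 (SE 0.32, adjusted p = 0.621).

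The last members act inside the mitochondria on the conversion of pyruvate to acetyl-CoA, and none of them lay apart in CPM. *Pdk1*, which phosphorylates and inhibits pyruvate dehydrogenase and is a known hypoxia target, stood at 45.04, 57.02 and 52.4 CPM against 35.9, 17.7 and 53.8 CPM, with s7 far below the rest and a log2 fold change of -0.52 (SE 0.37, adjusted p = 0.764). This ranged between -0.945 and -0.203 with 1 sample left out. *Pdk3* stood at 49.8, 37.1 and 30.8 CPM against 49.95, 55.5 and 27.6 CPM with a log2 fold change of 0.18 (SE 0.31, adjusted p = 0.913), and *Pdk2* was sparse at 0.359, 1.61 and 3.17 CPM against 5.03, 0.836 and 0.0543 CPM. The *Pdk1* share of the kinases ran from 12.5% in s7 to 68.3% in s8 in TPM, both Tet2-/-, but from 3.32% to 15.2% in the same samples over protein-coding transcripts, where *Pdk3* led in all 6 samples. The subunits of the enzyme itself, *Pdha1* at 111, 139 and 144 CPM against 126, 85.5 and 119 CPM and *Pdhb* at 65.9, 72.1 and 75.2 CPM against 74.98, 66.4 and 68.9 CPM, had log2 fold changes of -0.25 (SE 0.21) and -0.02 (SE 0.14). All 6 samples lay between 65.9 and 75.2 CPM for *Pdhb*.

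**Figure D4:**
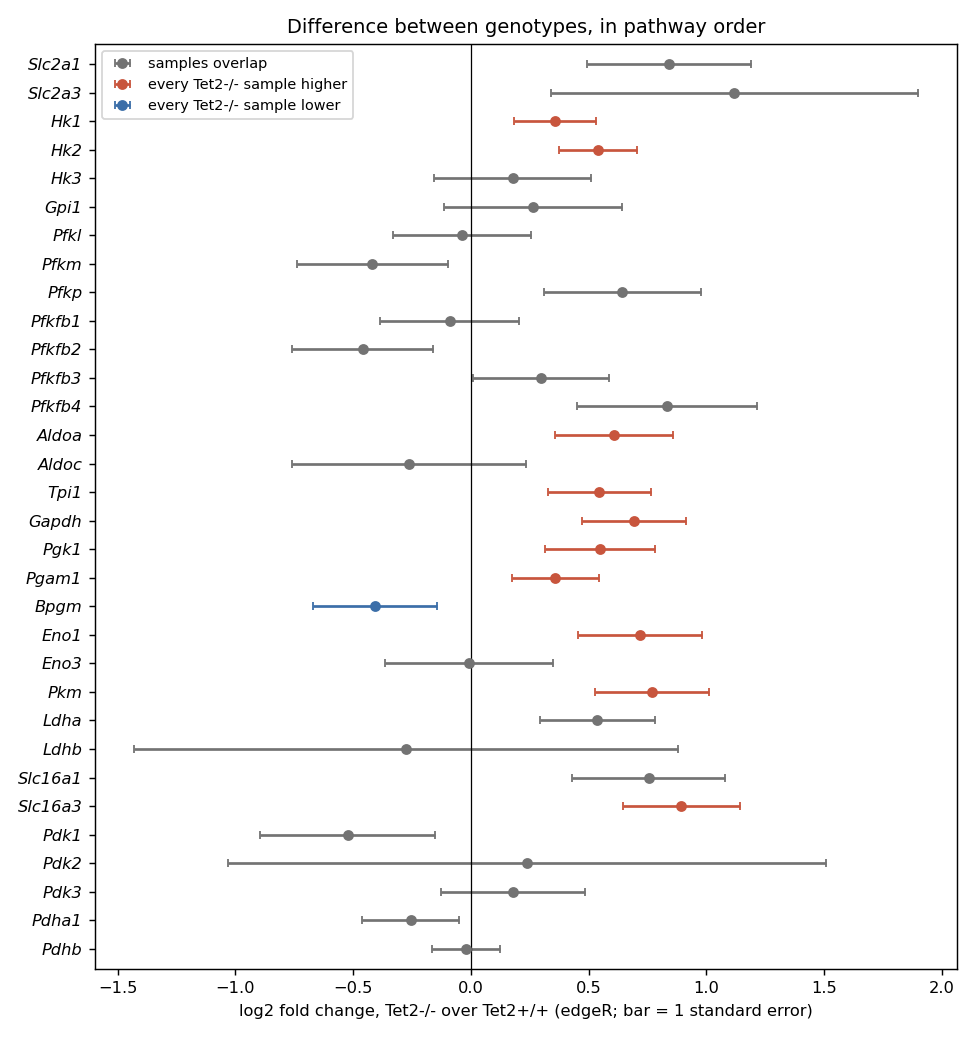
Log2 fold change of the Tet2-/- over the Tet2+/+ samples for 32 members in pathway order, with bars of 1 standard error from edgeR. The 10 members in red, from *Hk1* at 0.36 to *Slc16a3* at 0.89, had every Tet2-/- sample above, *Bpgm* in blue had every one below, and no adjusted p of edgeR was under 0.05.

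Samples also differed within a genotype in a way that crossed the members. Of 32 members, 14 had their lowest value in s24, among them 8 of the 10 that separated the genotypes, and 12 had their highest in s5. In s7, 8 members were highest (*Slc2a3*, *Hk1*, *Hk2*, *Hk3*, *Pfkfb3*, *Pfkfb4*, *Slc16a3* and *Pdk3*) and 7 lowest (*Pfkl*, *Pfkm*, *Pfkfb1*, *Bpgm*, *Eno3*, *Pdk1* and *Pdha1*). This sample had the highest mature neutrophil list and the highest summed list of 17 proliferation genes, which was 2712, 1846 and 2089 CPM against 2958, 3230.1 and 2752 CPM. The proliferation list lay above in every Tet2-/- sample, as most of the lower glycolytic steps did. All 17 of its genes had a positive log2 fold change, with a median of 0.55. Of them 8 were apart upwards, where 8.24% of genes with at least 1 CPM were. At an unadjusted p under 0.05, 5 of the 17 were higher, where 3.0% of all genes were, and 0 at an adjusted one (edgeR). One list lay below in every Tet2-/- sample, that of 10 basophil and mast cell genes, which summed to 523, 438 and 438 CPM against 249.6, 362 and 179 CPM. In this list *Tpsb2* was at 0. Of its 7 tested genes, 4 were lower at an unadjusted p under 0.05, where 5.12% of all genes were, and 0 at an adjusted one (edgeR). Of its 6 genes with at least 1 CPM, 3 were apart downwards, where 7.71% of such genes were. Its most negative gene with at least 1 CPM, *Cpa3*, a mast cell carboxypeptidase, stood at 263, 362 and 336 CPM against 87.7, 47.5 and 16.8 CPM. The part of proliferation and of these cells in the results was not tested.

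**Figure D5:**
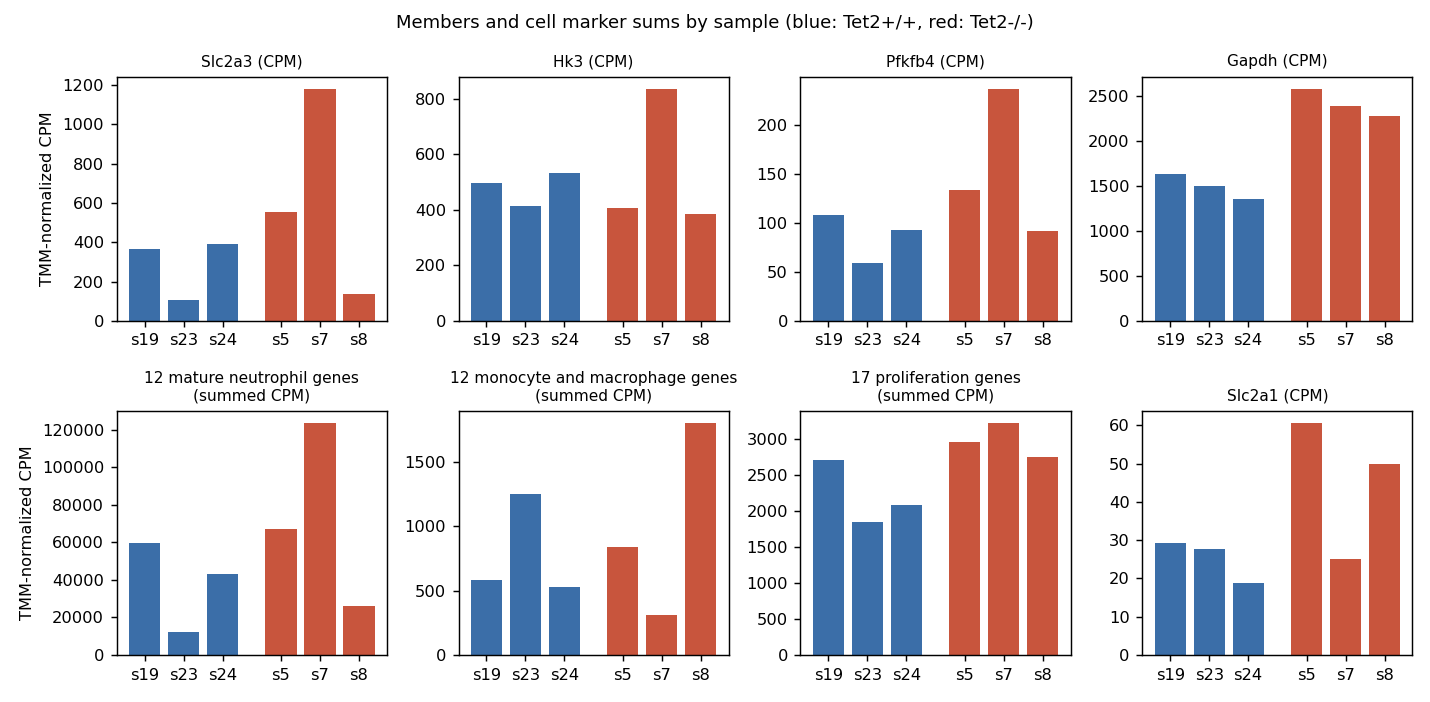
TMM-normalized CPM of 5 members and summed CPM of 3 marker lists, with 1 bar per sample. *Slc2a3*, *Hk3* and *Pfkfb4* peak in s7, as the mature neutrophil list does, while *Gapdh* is between 2280.2 and 2584 CPM in s5, s7 and s8.

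The genes that surround glycolysis were read from 11 lists of 147 genes in all, of which 123 were tested. None passed at an adjusted p under 0.05 with edgeR and Benjamini-Hochberg adjustment or with DESeq2. At an unadjusted p under 0.05 (edgeR), 6 of the 123 were higher and 2 lower, where 664 (3.0%) and 1135 (5.12%) of all 22170 genes were. Their median log2 fold change was 0.13, and the extremes named here leave out genes under 1 CPM. The pentose phosphate pathway, which leaves glycolysis at glucose 6-phosphate and makes NADPH, had 2 of 10 tested genes higher at that unadjusted p and 0 lower, with a median of 0.41. They were *G6pdx*, its first enzyme, at 395, 232 and 267 CPM against 533, 624 and 357 CPM with a log2 fold change of 0.76 (SE 0.30), with s5 and s7 high, and *Rpe* at 67.8, 53.8 and 56.2 CPM against 91.5, 91.6 and 71.03 CPM, apart between genotypes. The lowest in the list was *Prps2*, with a log2 fold change of -0.36 (SE 0.29).

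Of 22 citric acid cycle genes tested, 0 were higher and 1 lower at the unadjusted p, with a median of 0.15. The lower one was *Me3*, a mitochondrial malic enzyme, at 4.96, 1.87 and 3.94 CPM against 0.696, 1.67 and 1.57 CPM, and the most positive was *Mdh2* at 0.43 (SE 0.19). Of 10 tested genes of pyruvate entry and the pyruvate dehydrogenase complex outside the members, 0 were called either way, though the summed level of the list of 11, at 275, 263 and 249 CPM against 292, 285 and 329 CPM, lay above in every Tet2-/- sample. They ran from the phosphatase *Pdp2* at -0.54 (SE 0.30) to the carrier subunit *Mpc2* at 0.57 (SE 0.28). The other lactate genes, 7 tested, had 0 called, with *Bsg*, the chaperone of both lactate transporters, at 129.6, 155 and 135 CPM against 183, 112 and 157 CPM and *Slc16a7* at 0.31 (SE 0.43). Of 5 other hexose transporters tested, 0 were called, and they ran from *Slc2a8* at 0.13 (SE 0.59) to *Slc2a6* at 0.74 (SE 0.33). The other isozymes and regulators, 8 tested, ran from *Galk1* at -0.0025 (SE 0.39) to *Tigar* at 0.45 (SE 0.24), with 0 called.

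Regulators of glycolytic genes had 3 of 17 tested higher at the unadjusted p and 0 lower, with a median of 0.17. Among them *Mlx*, the partner of the glucose-sensing factors, stood at 51.6, 34.7 and 36.1 CPM against 52.4, 70.7 and 55.5 CPM and *Prkaa1*, a catalytic subunit of AMPK, at 87.03, 64.1 and 68.9 CPM against 91.7, 116 and 102 CPM, both apart between genotypes. *Myc* had the most negative value, at 116, 153 and 118 CPM against 125, 52.1 and 92.8 CPM with a log2 fold change of -0.52 (SE 0.32, adjusted p = 0.722), and was lowest in s7. Of 15 tested hypoxia genes outside glycolysis, 1 was higher and 0 lower, with a median of 0.31. It was *Ndrg1* at 86.1, 122 and 80.4 CPM against 155, 130.01 and 184 CPM, apart between genotypes. *Vegfa* was the most positive at 0.73 (SE 0.53), with 72.3, 28.1 and 73.2 CPM against 98.04, 150.0 and 40.6 CPM, and *Ak4* the most negative at -1.14 (SE 0.82). *Rpe*, *Prkaa1* and *Ndrg1* were named after their values were seen.

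Promoters of the members are given because 10 of them lay apart in the same direction. The window read was the 250 bases before the RefSeq start in GRCm38.p6, which was at hand for 33 members. Where RefSeq gives several starts, the one nearest to the most abundant coding transcript was read. ACGTG, the core of the hypoxia-response element, searched on both strands, was in 15 of the 33 (45.5%), against 16.6% of 32851 windows of that length. CACGTG, the E-box that contains it and that Myc binds, was in 4 (12.1%) against 6.02%, and TTGCNNAA, a core of the C/EBP site, also on both strands, in 3 (9.09%) against 9.56%. The members' windows were richer in CpG, with a median of 14 against 6, which bears on any motif that holds CG. A match to 5 letters is not a site. Of the 10 members that separated the genotypes, *Hk2*, *Aldoa*, *Pgk1*, *Pgam1* and *Slc16a3* held ACGTG and *Hk1*, *Tpi1*, *Gapdh*, *Eno1* and *Pkm* did not in the window read. That window was 1 of 2 for *Hk1* and *Pkm* and 1 of 3 for *Aldoa* and *Eno1*, and for *Hk1* it lay 17941 bases from the start of its most abundant coding transcript. Annotated exons covered 250 of the 250 bases in *Eno1*, 208 in *Pkm*, 186 in *Hk1* and 138 in *Tpi1*. They covered 0 in *Gapdh* and 14 in *Slc16a3*. In *Eno1*, *Pkm*, *Hk1* and *Tpi1* the lack of ACGTG thus refers mostly to exon sequence. The windows of *Hk2*, *Aldoa*, *Pgk1* and *Pgam1*, which overlap no annotated exon, read as follows. They run from 5′ to 3′ on the gene's strand, with ACGTG on either strand in capitals.
Hk2 (chr6:82774455-82774704, - strand): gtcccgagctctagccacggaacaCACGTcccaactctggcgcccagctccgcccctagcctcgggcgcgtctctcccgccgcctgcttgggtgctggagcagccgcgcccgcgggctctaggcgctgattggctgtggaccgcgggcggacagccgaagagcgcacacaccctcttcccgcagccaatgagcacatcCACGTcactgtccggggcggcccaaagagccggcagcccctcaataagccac
Aldoa (chr7:126799255-126799504, - strand): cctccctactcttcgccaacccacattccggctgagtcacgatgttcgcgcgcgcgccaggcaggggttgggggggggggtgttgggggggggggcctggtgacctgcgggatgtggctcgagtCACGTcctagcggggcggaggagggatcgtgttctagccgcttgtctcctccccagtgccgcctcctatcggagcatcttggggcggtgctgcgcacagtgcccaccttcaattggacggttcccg
Pgk1 (chrX:106186850-106187099, + strand): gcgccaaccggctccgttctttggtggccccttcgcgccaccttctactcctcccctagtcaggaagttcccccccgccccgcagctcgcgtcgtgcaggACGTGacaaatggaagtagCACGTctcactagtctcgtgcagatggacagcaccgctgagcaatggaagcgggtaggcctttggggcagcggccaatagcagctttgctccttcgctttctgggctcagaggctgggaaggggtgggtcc
Pgam1 (chr19:41911621-41911870, + strand): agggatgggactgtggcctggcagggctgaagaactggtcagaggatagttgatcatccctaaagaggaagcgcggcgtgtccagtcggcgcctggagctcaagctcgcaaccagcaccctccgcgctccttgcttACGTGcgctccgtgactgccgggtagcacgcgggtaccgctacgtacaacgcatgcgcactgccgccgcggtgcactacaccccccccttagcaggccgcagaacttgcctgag

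Counted from the base before the start as -1, the matches begin at -226 and -52 in *Hk2*, -126 in *Aldoa*, -150 and -131 in *Pgk1* and -114 in *Pgam1*. *Hk2* and *Pgk1* thus hold 2 each and the others 1.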

How the data were processed

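RNA-seq was read from 6 samples of AML blasts, 3 per genotype, from TruSeq libraries that keep no strand, sequenced on a NextSeq 500. Per the methods, the authors estimated transcript abundance with Salmon (version 0.12.0 in the submitters' processing notes) through bcbio against Ensembl transcripts of GRCm38. What the authors deposited is Salmon's output: expected counts, or estimated reads of each transcript, not normalized between samples, and TPM, deposited beside them, corrected for effective length and scaled to the same total in each sample.

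Here the estimated counts of 136288 transcripts were summed to genes of GENCODE M21 (Python 3.11.15, pandas 2.3.3) and rounded. The 112 transcripts without a gene, with 0.0307% to 0.0416% of reads, were left out. Genes with a sum of 10 or more after scaling to library size entered edgeR's quasi-likelihood test (edgeR 4.0.16, R 4.3.3), with TMM factors of 0.867 to 1.11, no covariates, Benjamini-Hochberg adjustment over all 22170 genes and a threshold of 0.05. A standard error was obtained as the size of the log2 fold change over the root of F. The study's own test was DESeq2, so DESeq2 1.42.0 was an alternative, with length-scaled counts, library-size and RLE scaling, other filters, added copies (BLAST+ 2.17.0, 95% identity over 50% of a transcript) and each sample left out. Protein-coding isozyme shares, and separation in TPM, were chosen after the data were seen. Figures were drawn with matplotlib 3.10.9. Promoter windows and exons came from RefSeq (GRCm38.p6) and GENCODE.

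Depth was 13036643 to 32855343 reads per library and the biological coefficient of variation 43.6%. With 3 against 3, an exact permutation test cannot give p under 0.10. Nothing says that samples came from separate donors, so p-values measure the spread between these samples. No batch is given. No 2 libraries were identical. The members and lists were chosen with earlier results of these data known. Named genes were all members, the extremes of each list above 1 CPM, any list gene past the adjusted threshold, and *Tet2*. *Rpe*, *Prkaa1*, *Ndrg1*, *Phkg1* and *Tpsb2* were named after their values were seen.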

Additional observations from a re-analysis of the deposited data

How the results depend on the processing

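No paired analysis was possible because the sample numbers of the genotypes (19, 23 and 24 against 5, 7 and 8) share none. Of 34 members, 22 kept the sign of their log2 fold change under every alternative run. Causes were not tested.

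The count of members higher at an adjusted p under 0.05 was 0 with edgeR, 2 with DESeq2 and 1 with DESeq2 on length-scaled counts. At an unadjusted p, 8 members were higher, 3 when scaled by library size only, and 1 to 12 with 1 sample left out, while 0 were lower, or 0 to 1 with 1 left out. The median log2 fold change was 0.28, 0.0941 by library size only, and 0.20 to 0.42 with 1 left out. Members above in every Tet2-/- sample numbered 10, 6 by library size only, and members below numbered 1, 2 by library size only, 0 in TPM, and 1 to 3 with 1 left out, which can only add to such a count.

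Over all genes, 0 were higher at an adjusted p, but 59 with DESeq2, 64 with DESeq2 on length-scaled counts, 1 with RLE factors, 4 without a filter and 1 with filterByExpr. At the adjusted p 10 were lower, 326 with DESeq2, 5 with length-scaled counts, 322 with DESeq2 on these, 62 without a filter, and 0 to 7 with 1 left out. At an unadjusted p 664 were higher, 258 by library size only and 250 to 1016 with 1 left out. Of the other pathway genes 6 were higher at an unadjusted p, 1 by library size only and 0 to 14 with 1 left out. Lower were 2, 4 with DESeq2, 4 with DESeq2 on length-scaled counts, 5 by library size only, 5 without a filter and 1 to 4 with 1 left out.

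Log2 fold changes of some members changed sign. By library size only they were -0.0274 for *Hk3*, -0.10 for *Eno2* and -0.0045 for *Pdk3*. With length-scaled counts, tested by edgeR and DESeq2, they were 0.16 and 0.16 for *Pfkm*, 0.0321 and 0.044 for *Aldoc*, 0.045 and 0.042 for *Eno3* and -0.0451 and -0.0751 for *Pdk2*. *Eno1b* had 1.26 with copies added and *Eno3* 0.0079 without a filter. With 1 sample left out the ranges were -0.28 to 0.37 for *Hk3*, -0.0334 to 0.64 for *Gpi1*, -0.34 to 0.21 for *Pfkl*, -0.60 to 0.0908 for *Aldoc*, -0.81 to 0.51 for *Eno2*, -0.40 to 0.28 for *Eno3*, -1.10 to 1.91 for *Ldhb*, -1.95 to 1.02 for *Pdk2*, -0.0084 to 0.43 for *Pdk3* and -0.0787 to 0.0213 for *Pdhb*.

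In percentage points of share, the *Pfkl* difference was -16.9 in TPM, -8.37 in counts and -12.7 over protein-coding transcripts, and that of *Pfkp* was 17.3, 11.5 and 13.7. The difference for *Pdk2* was 0.336 in counts. With 1 left out the ranges were -6.07 to 8.21 for *Slc2a1*, -1.29 to 0.966 for *Pfkm*, -0.00112 to 0.00183 for *Pkm*, -1.33 to 1.27 for *Ldha*, -1.87 to 2.34 for *Slc16a1*, -0.94 to 0.515 for *Pdk2* and -0.80 to 1.39 for the M2 share of *Pkm*.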

Other observations

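Glycogen metabolism, whose store can feed glucose 6-phosphate into glycolysis, had 18 genes of synthesis and breakdown tested, of which 1 was lower at an unadjusted p under 0.05 (edgeR). It was *Phkg1*, a catalytic subunit of phosphorylase kinase, named after its values were seen, at 1.56, 6.85 and 5.28 CPM against 1.77, 1.61 and 1.95 CPM, high in s23 and s24. *Phka1*, a regulatory subunit of that kinase, had the most negative log2 fold change but did not pass, at 0.299, 9.42 and 12.3 CPM against 2.25, 0.129 and 0.163 CPM, high in the same samples. *Gys1*, glycogen synthase, was highest in s7 at 102, 54.1 and 79.7 CPM against 121, 167 and 74.2 CPM. Of 8 tested genes of the serine and glycerol branches, 0 were called, and they ran from *Gpd1* at -0.31 (SE 0.55) to *Shmt2* at 0.39 (SE 0.40). Of 5 tested genes of gluconeogenesis, 0 were called, and *Fbp1*, which opposes phosphofructokinase-1, stood at 65.02, 38.2 and 35.5 CPM against 25.4, 44.2 and 42.5 CPM.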
